A study of Rattus norvegicus with 84 samples.

Results

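RNAs that mark the cells lining the fluid spaces of the brain were followed through extracellular vesicle (EV) libraries: the multiciliated cell genes Foxj1, Ccdc153, Dnah5, Dnah11, Rsph1, Spag17 and Tmem212 and the choroid plexus genes Ttr, Folr1 and Kl. They were listed by symbol, 10 of the 18782 annotated genes of the count table, and were chosen by their known roles together with their counts and FPKM in these brain and plasma libraries, which had been seen before. Their levels are therefore a description. The study asked how the RNA cargo of brain and plasma EVs follows stroke and whether it differs after human neural stem cells (hNSCs) were given. The animals were male wild-type Sprague-Dawley rats. Those with stroke were 8 to 12 weeks old, had the middle cerebral artery closed for 90 min, and received an injection 3 days later of hNSCs (the hNSCs groups) or of saline (the control groups). Rats were killed 4, 10 or 31 days after stroke, and a group of healthy adult rats had neither occlusion nor injection, so that the saline controls differ from the healthy rats in both occlusion and injection. Each of the 7 groups held 3 rats, and brain and plasma libraries carry the same animal numbers in the labels. The brain EVs came from the ipsilateral hemisphere as a whole, and the plasma EVs from size exclusion chromatography. In such bulk vesicle RNA, fewer vesicles from a cell type and less RNA per vesicle cannot be told apart.

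Ependymal cells line the ventricles and carry tufts of motile cilia that move cerebrospinal fluid. The cilia beat through dynein motors along a microtubule core, the axoneme, and the transcription factor Foxj1 switches on the genes of that core. The choroid plexus is an epithelium in the ventricles that secretes cerebrospinal fluid. It also releases transthyretin, the thyroid hormone carrier encoded by Ttr, which the liver makes too. The multiciliated cell program is accompanied by the miR-34 and miR-449 families, whose guide strands share a seed, and the choroid plexus is rich in miR-204 and miR-211.

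The sequences of these miRNAs are shown because 2 of them, miR-34b-5p and miR-34c-5p, rose in brain at day 31 against healthy under every alternative run, which held for no other comparison. They are the mature sequences of RefSeq (assembly GRCr8), 5′ to 3′, with the seed (bases 2 to 8) in capitals, and those printed were the same as the sequences in the deposited miRNA table. The first 4 share the seed GGCAGUG, and the last 2 share UCCCUUU.
rno-miR-34b-5p: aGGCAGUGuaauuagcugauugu
rno-miR-34c-5p: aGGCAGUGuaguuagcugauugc
rno-miR-449a-5p: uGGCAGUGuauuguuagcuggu
rno-miR-449c-5p: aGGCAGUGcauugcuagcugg
rno-miR-204-5p: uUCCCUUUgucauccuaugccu
rno-miR-211-5p: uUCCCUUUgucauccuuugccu
The first pair lies on the minus strand of chromosome 8, miR-34b-5p at chr8:60306657-60306679 and miR-34c-5p at chr8:60306133-60306155. miR-449c-5p (chr2:46402394-46402414) and miR-449a-5p (chr2:46403925-46403946) lie on the plus strand of chromosome 2. miR-204-5p (chr1:229743493-229743514) and miR-211-5p (chr1:127189353-127189374) lie on the plus strand of chromosome 1. miR-34b-5p and miR-34c-5p differ at 2 of their 23 bases and miR-204-5p and miR-211-5p at 1 of 22, in both pairs outside the seed, so the members of a pair are close in sequence but were counted separately.

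Brain libraries held 569136 to 15587216 counts on annotated genes, which was 3.18% to 51.9% of all their counts. The 6 brain libraries of day 31, from both arms, were the deepest, with 6379318 or more, and the other 15 held 6105035 or fewer. Levels are given as CPM, counts scaled to the annotated total of a library with TMM factors. A gene without a count in a brain library could still have had up to 0.192 to 5.27 CPM, depending on depth. This is the level that 3 counts would give on the annotated total without TMM factors. That limit covers counting error only. The share of annotated counts differed between groups. It was 7.11% to 20.9% in healthy rats, and in the control groups 22.0% to 25.3% at day 4, 11.3% to 13.4% at day 10 and 30.3% to 43.0% at day 31. In the hNSCs groups it was 10.6% to 20.6% at day 4, 3.18% to 16.9% at day 10 and 29.9% to 51.9% at day 31. All 9 genes of a neuron list were detected in the brain libraries, and Gfap, the astrocyte filament gene that rises in reactive gliosis, went from 590 ± 97 CPM (SD, n = 3) in the healthy group to 2797 ± 76 in the control group at day 4 (edgeR adjusted p = 0.0110).

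All 10 genes had counts in each of the 6 day-31 libraries, the deepest, and between 3 and 9 had counts in the other 15, so that depth and day 31 cannot be told apart. Among those 15 the number of genes mostly rose with depth, from 3 in the shallowest library, with 569136 counts, to 9 in healthy rat 2, with 4498193. The order was not strict, since rat 1 of the control group at day 4, with 6105035, held 7. Rats 2 and 3 of that group, with 3428151 and 4563209, held 5 each. Of the 210 values of the 10 genes in brain, 68 were 0 (32.4%) and 1 was between 1 and 5 counts. Among the 9269 annotated genes whose mean counts span the range of the members other than Ttr, 22.9% of values were 0 and 2.48% were between 1 and 5. A gene was thus mostly either absent from a brain library or present with more than 5 counts, among the members as among other genes of like level. In plasma 1 to 4 of the 10 genes had counts in a library.

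**Figure D1:**
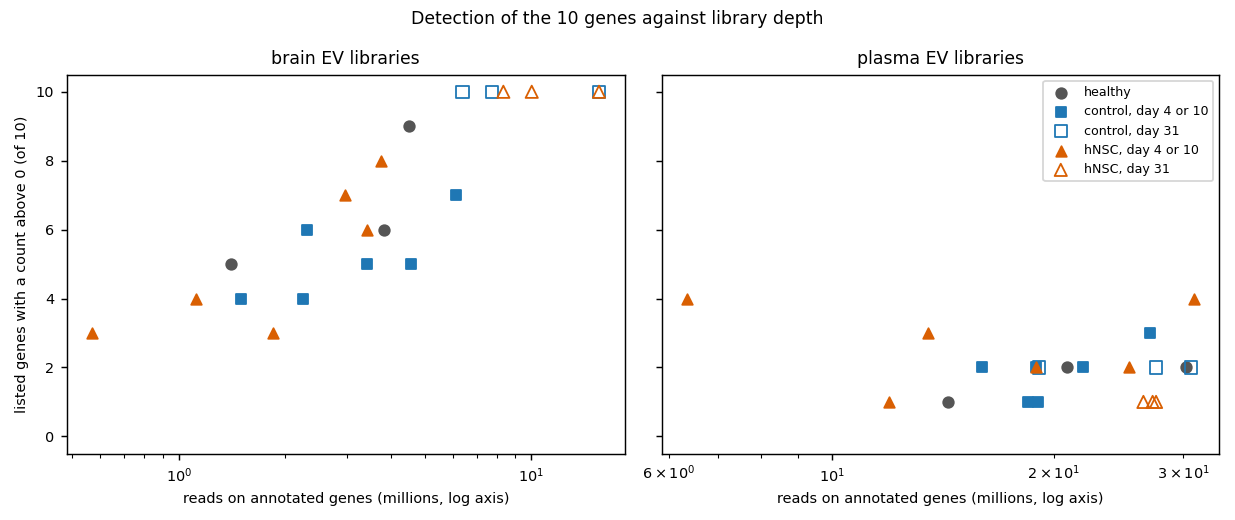
Number of the 10 genes with a count above 0 (vertical axis) against counts on annotated genes (log axis) in each of the 21 brain libraries (left) and the 21 plasma libraries (right). The 6 day-31 brain libraries (open symbols) lie at 6379318 counts or more and hold all 10 genes, while the plasma libraries hold 1 to 4.

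The members differed in level. Per transcript length, on the FPKM scale, Ttr was the highest, with a mean of 8.28 ± 8.07 (SD over the 21 brain libraries, in percentile 98.7 of annotated genes by mean FPKM), and it was the highest of the 10 in 20 of the 21 libraries. Foxj1 followed at 0.857 ± 0.783, then Ccdc153 at 0.577 and Rsph1 at 0.575. Dnah11 had a mean FPKM of 0.181, Kl 0.123, Dnah5 0.0856, Folr1 0.0743, Spag17 0.0710 and Tmem212 0.0688. Foxj1 was above Ccdc153 in 15 of 21 libraries, and below that each gene was above the next in 4 to 16 of 21, so that this part of the order is not resolved by the spread between libraries. By mean FPKM the choroid plexus genes thus stood at ranks 1, 6 and 8.

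Foxj1, the regulator of motile ciliogenesis, was detected in every brain library. It stood at 37.4, 6.20 and 14.3 CPM in the 3 healthy rats, at 36.8, 43.2 and 41.6 in the control group at day 4, at 26.0, 21.4 and 35.3 at day 10, and at 28.3, 43.7 and 18.1 at day 31. In the hNSCs groups it stood at 27.9, 47.8 and 8.28 at day 4, at 28.1, 63.9 and 24.1 at day 10, and at 33.9, 38.3 and 26.6 at day 31. The healthy rats spanned the range of most other libraries, because healthy rat 1 was as high as many stroke rats and the other two were low. In the control group at day 4 the log2 fold change against healthy was 1.09 (SE 0.76, adjusted p = 0.634), and the groups overlapped. Without healthy rat 1, the shallowest healthy library, it was 1.95 (adjusted p = 0.370).

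The axoneme genes came next. Ccdc153, which encodes a coiled-coil protein of motile cilia, was at 0, 9.30 and 9.00 CPM in healthy rats and at 9.94, 3.57 and 0 in the control group at day 4. It was at 9.80, 22.8 and 0 at day 10 and at 16.2, 23.5 and 19.2 at day 31. The hNSCs groups had 0, 18.2 and 56.8 at day 4, 21.7, 0 and 0 at day 10, and 18.3, 22.5 and 24.9 at day 31. All 6 day-31 libraries lay above the healthy group, and the earlier days mixed absent and present values.

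Rsph1, a gene of the radial spoke head that steadies the ciliary beat, was present in only 1 healthy library, at 8.86 CPM. It was at 15.4, 12.5 and 0 CPM in the control group at day 4 and at 0, 12.8 and 4.57 in the hNSCs group. None of the 6 libraries of day 10 held a count, while the day-31 libraries had 10.0, 17.2 and 22.1 in the control group and 15.5, 15.6 and 14.8 in the hNSCs group. As for Ccdc153, the day-31 libraries lay apart from the healthy ones, and the day-10 libraries, which held 569136 to 2955945 annotated counts, included the shallowest of all.

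Dnah5 and Dnah11 encode heavy chains of outer dynein arms, the motors of the axoneme. Dnah11 was the more often detected of the pair, in 20 of 21 libraries against 14. Its CPM values were 15.1, 19.9 and 41.6 in healthy rats, 39.6, 32.2 and 39.0 in the control group at day 4, 34.5, 29.8 and 43.2 at day 10, and 57.2, 65.8 and 27.6 at day 31. In the hNSCs groups they were 0, 28.7 and 20.6 at day 4, 46.9, 82.5 and 36.2 at day 10, and 65.5, 71.0 and 39.4 at day 31. The hNSCs group at day 4 lay wholly below its control group. Dnah5 was at 0, 14.8 and 26.7 CPM in healthy rats, at 10.4, 0 and 24.3 in the control group at day 4, at 20.03, 0 and 0 at day 10 and at 25.0, 21.1 and 20.2 at day 31. Its highest value, 95.8, was in the hNSCs group at day 10, in a library of 1123445 annotated counts, where the other two values were 37.3 and 0. In the hNSCs groups of day 4 and day 31 Dnah5 was at 0, 16.2 and 0 and between 19.3 and 25.3. A second row of the table, Dnah5-2, was at 0 in the library with 95.8 CPM of Dnah5, and how reads were divided between both rows is not given in the sources used here, so the level of Dnah5 is uncertain.

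Spag17, a gene of the central pair apparatus, was at 8.62, 9.30 and 34.9 CPM in the healthy group. It was at 0, 0 and 13.6 in the control group at day 4, at 9.80, 0 and 12.6 at day 10 and at 16.03, 11.8 and 5.36 at day 31. The hNSCs group at day 4 had no count in any library, the one at day 10 had 6.04, 0 and 0, and the one at day 31 had 15.2, 12.3 and 9.31. Tmem212, which encodes a membrane protein of ciliated cells, had no count in the 12 stroke libraries of day 4 and day 10. It was at 15.8 CPM in healthy rat 1 and absent from the other healthy libraries, at 2.96, 4.62 and 6.47 in the control group at day 31 and at 1.90, 3.34 and 1.69 in the hNSCs group at day 31. The single healthy value came from 22 counts in a library of 1403190, against 14 to 48 counts in the day-31 libraries.

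Ttr, the choroid plexus gene for transthyretin, was detected in all brain libraries. Its CPM values were 228, 222 and 44.5 in healthy rats, 165, 42.0 and 11.3 in the control group at day 4, 73.3, 121 and 55.9 at day 10 and 102, 211 and 106 at day 31. In the hNSCs groups they were 97.6, 224 and 65.4 at day 4, 94.1, 118 and 88.9 at day 10, and 90.9, 89.8 and 67.0 at day 31. The healthy group held both high and low values, and every group overlapped it. The lowest Ttr values of all were 2 of those in the control group at day 4, whose remaining rat lay within the healthy range.

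Folr1, the folate receptor through which the choroid plexus moves folate into cerebrospinal fluid, was rarely seen. It was at 1.23, 5.02 and 0.315 CPM in the control group at day 31, at 1.59, 5.10 and 1.69 in the hNSCs group at day 31, at 1.99 in 1 healthy library and at 9.96 in 1 library of the hNSCs group at day 4. The remaining 13 libraries had none. Kl, which encodes the co-receptor klotho and is expressed in choroid plexus and kidney, was at 0, 13.1 and 0 CPM in healthy rats and at 13.9, 10.2 and 1.73 in the control group at day 31. It was at 18.3, 0 and 0 in the control group at day 4, at 20.9, 12.2 and 2.00 in the hNSCs group at day 4, at 13.8, 0 and 0 in the hNSCs group at day 10 and at 12.1, 8.34 and 4.48 in the one at day 31. No library of the control group at day 10 held Kl. Values of the kidney list in brain, summed over its genes, ranged from 0 to 49.1 CPM, with 1 of its 6 matched genes at 0 in all brain libraries, and its part in the Kl and Folr1 values was not tested.

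**Figure D2:**
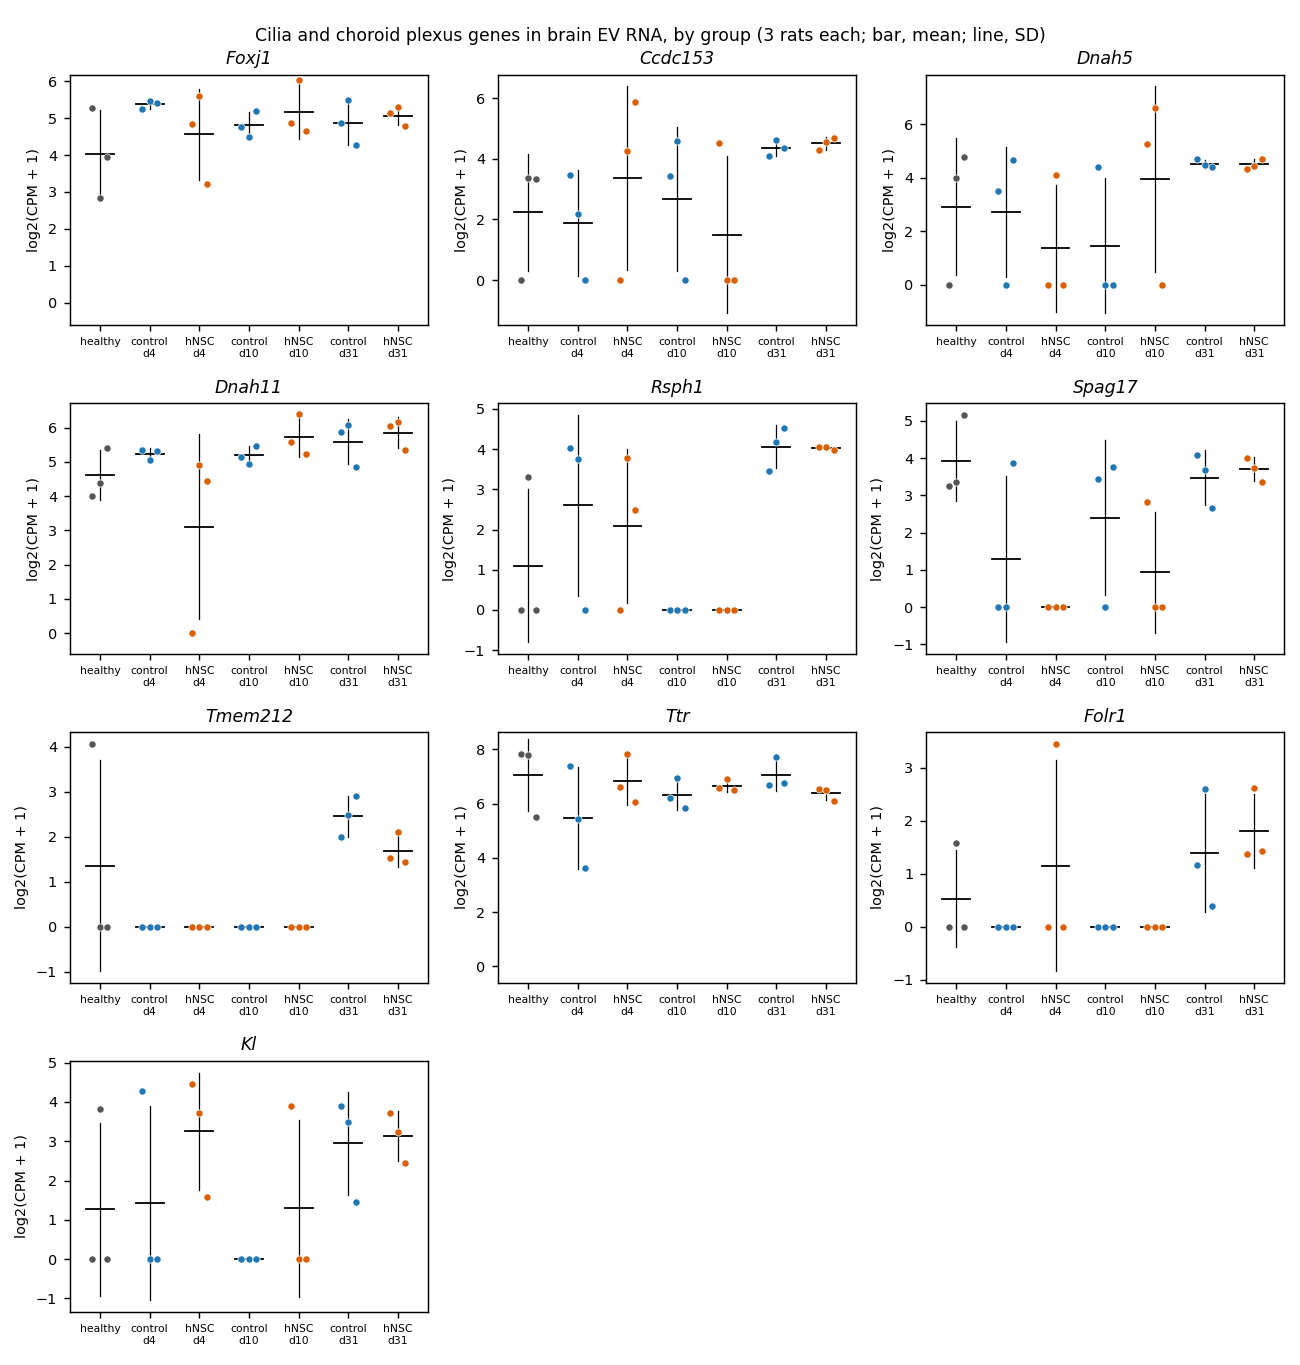
Each of the 10 genes in the 21 brain EV libraries on a log2(CPM + 1) scale, by group, with points for rats, a bar for the mean and a line for the SD (n = 3). Ttr and Foxj1 are present in all libraries, Rsph1 is at 0 in all 6 libraries of day 10 and present in all 6 of day 31, and Tmem212 is at 0 in all 12 stroke libraries of days 4 and 10.

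In the brain, stroke controls were compared with healthy rats at each day. No member was called in any of the 3 comparisons by edgeR at a Benjamini-Hochberg adjusted p under 0.05 over 14515 genes, of which 0.861% were called at day 4 (0.73% higher and 0.131% lower), 0.572% at day 10 (0.537% and 0.0344%) and 0.00689% (1 gene, Gfap) at day 31. At an unadjusted p under 0.05 there were 1, 3 and 0 members, and DESeq2 called 0 members in each, with 0, 2 and 0 at an unadjusted p under 0.05. The members that passed the unadjusted threshold in edgeR were genes absent from all libraries of the control group and present in 1 healthy library: Tmem212 at day 4, and Rsph1, Tmem212 and Kl at day 10. No member lay wholly above or below the healthy group at day 4, where 13.9% and 10.4% of all genes did, or at day 10, where 7.05% and 7.03% did. Without the 3 shallowest brain libraries, with 569136 to 1403190 annotated counts, a choice made after seeing the data, 1 of 10 lay above at day 4 against 16% of all genes and 1 of 10 at day 10 against 8.76%, and 0 lay below.

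At day 31 the log2 fold changes of the control group against healthy were 2.42 for Rsph1 (SE 1.97), 1.65 for Ccdc153 (SE 1.82), 1.57 for Folr1 (SE 2.08), 0.97 for Dnah11 (SE 0.83), 0.95 for Kl (SE 2.11), 0.66 for Dnah5 (SE 1.86) and 0.66 for Foxj1 (SE 0.76). They were −0.14 for Tmem212 (SE 1.98), −0.24 for Ttr (SE 0.66) and −0.67 for Spag17 (SE 1.84). The adjusted p was 1 for each of the 10, and the median over the members was 0.81, against 0.24 over all genes tested. Rsph1 and Ccdc153 lay wholly above the healthy group, 2 of 10, where 18.9% of all genes did, and 0 lay below it, where 6.39% did. Without the 3 shallowest libraries 4 of 10 lay above against 22.9% of all genes. The microglia list, which marks the immune cells of the brain, had in the same comparison a summed level of 73.3 to 105 CPM in healthy rats, with 10 of its 11 genes detected, and of 210.1 to 433 in the day-31 controls, with 11 of 11. The meninges list had summed levels of 342 to 503 CPM and of 782 to 1386, with 8 and 9 of its 9 genes detected. Their part in the members' values was not tested.

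This comparison depended on the scale of the values more than any other. The FPKM values of the authors are scaled to mapped fragments, which include those of unannotated transcripts, whereas CPM here are relative to annotated genes, and the annotated share was higher at day 31. On FPKM, Foxj1 was at 0.261, 0.113 and 0.181 in healthy rats and at 2.08, 2.43 and 0.596 in the control group at day 31, and Ttr at 4.43, 11.7 and 1.58 against 20.7, 32.0 and 9.74. By limma on log2(FPKM + 1), 6 of the 6 members that passed its filter were called, and so were 90.6% of all 12564 genes, with a median log2 change of 0.79 over all genes. The changes were 1.81 for Ttr (SE 0.63), 1.21 for Rsph1 (SE 0.21), 1.11 for Foxj1 (SE 0.27), 1.11 for Ccdc153 (SE 0.24), 0.41 for Dnah11 (SE 0.13) and 0.30 for Kl (SE 0.13). With 0.1 in place of 1 as the pseudocount 6 members and 85.8% of all genes were called, and the median over all genes was 1.84, above the 1.66 of Dnah11 and the 1.31 of Kl and below the 2.07 of Ttr, the 2.49 of Foxj1, the 2.96 of Ccdc153 and the 3.34 of Rsph1. The members thus moved with most of the table on this scale, and Ttr had opposite signs on both scales.

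The effect of hNSCs was read within each day. No member was called at day 4, day 10 or day 31, and 0% of the 14515 genes were called in each comparison by edgeR. Unadjusted p values under 0.05 were reached by 2, 1 and 0 members in edgeR and by 1, 1 and 0 in DESeq2, which called 0 members after adjustment, and those of edgeR were Spag17 and Folr1 at day 4 and Kl at day 10, each absent from 1 of the groups compared. At day 4 Dnah11 was lower without overlap, 16.4 CPM on average against 36.9 (log2 fold change −1.15, SE 0.84, adjusted p = 1), 1 of 10 members where 6.82% of all genes were, and 0 were higher, against 2.62%. At day 10 no member stood apart, where 1.61% of all genes were higher and 7.06% lower. Without the shallowest libraries, which leaves 1 library in that hNSCs group, 3 of 10 were higher against 21.8% of all genes and 0 lower against 16.5%. At day 31, when all 10 genes were present in all libraries, Ttr was lower without overlap, 82.6 against 139.7 CPM (log2 fold change −0.76, SE 0.66, adjusted p = 1), 1 of 10 where 2.67% of all genes were, and 0 were higher, against 3.29%. The other 9 genes had day-31 log2 fold changes between −1.01 for Tmem212 (SE 1.97) and 0.35 for Folr1 (SE 1.99), and their groups overlapped. The effect of hNSCs was also compared between days by interaction terms, which called 0 of 14515 genes in each of 3 terms (edgeR), and the lowest adjusted p of a member was 0.672. At an unadjusted p under 0.05 there were 0, 0 and 2 members, the last being Spag17 and Folr1 between day 31 and day 4.

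Wider lists of the same cells gave context. Of 96 axoneme genes, which include dynein arm, radial spoke, central pair and docking genes, 90 had a row and 81 were tested in brain, and 0 were called in any of the 6 comparisons by edgeR, with between 0 and 16 at an unadjusted p under 0.05. At day 31 against healthy their median log2 fold change was 0.66, against 0.24 over all genes, 61 of 81 were above 0, and 28 of 81 (34.6%) lay wholly above the healthy group where 18.9% of all genes did. The 2 with the highest level were Dnah9, a dynein heavy chain, at 242 ± 142 CPM in healthy rats and 217 ± 108 in the control group at day 31, and Drc1, a gene of the nexin-dynein regulatory complex, at 191 ± 110 and 157 ± 34. Neither showed the list's shift, with log2 fold changes of −0.16 (SE 0.75) and −0.28 (SE 0.44). The summed axoneme level was 1180 to 2685 CPM in healthy rats and 1589 to 2697 in the control group at day 31, so the groups overlapped, and 16 of the 90 genes were at 0 in all healthy libraries while 0 were in the control group at day 31.

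Regulators of multiciliation and ciliary transport, 18 listed and 12 tested, had 0 called genes in all 6 comparisons (edgeR, 0 to 2 at an unadjusted p under 0.05), and 6 of 12 (50%) lay above the healthy group at day 31, where 18.9% of all genes did. The 2 with the highest level were Ift172, a gene of the transport along cilia, at 188 ± 68 CPM in healthy rats and 103 ± 15 in the control group at day 31, and Rfx3, a transcription factor of ciliary genes, at 77.3 ± 20.7 and 99.7 ± 20.9. Their log2 fold changes were −0.86 (SE 1.00) and 0.36 (SE 0.55). The summed level of the 15 regulators with a row was 341 to 463 CPM in healthy rats and 352 to 422 in the control group at day 31, so the groups overlapped. Of the 15, 11 were detected in healthy rats and 14 in that control group. The median log2 fold change of the list was 0.83, and 0.47 with genes absent from a whole group set at the bound given by 3 counts.

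The choroid plexus list had 48 genes, of which 41 were tested, and 1 was called in the 6 comparisons. At day 31 against healthy 6 of 41 (14.6%) lay wholly above, where 18.9% of all genes did. Igf2, a growth factor secreted by the choroid plexus and also made by meningeal and vascular cells, fell at day 4 from 1050 ± 429 CPM in the healthy group to 212 ± 49 in the control group (log2 fold change −2.31, SE 0.50, edgeR adjusted p = 0.0253). This was 1 of 41 where 0.131% of all genes fell. The sign was the same in all 14 alternatives, and DESeq2 gave an adjusted p of 0.000277. The call was lost without the 3 shallowest libraries (log2 fold change −1.97, adjusted p = 0.0894) and without any 1 of 5 libraries (−1.99 to −2.50, adjusted p from 0.0788 to 0.159), which were all 3 of the control group and healthy rats 1 and 3. It was also lost by limma on log2(FPKM + 1) (change −0.94, adjusted p = 0.311) and on log2(FPKM + 0.1) (change −1.20, adjusted p = 0.217). The summed level of the meninges list was higher in the same comparison, 863 to 2088 CPM against 342 to 503, and its part was not tested. In the hNSCs group at day 4 Igf2 was at 717 ± 437 CPM, and the difference from the control group was 1.75 on the log2 scale (SE 0.49, adjusted p = 0.498). Atp1b1, a sodium pump subunit, was the next highest, at 593 ± 72 CPM in healthy rats and 299 ± 86 in the control group at day 10 (log2 fold change −0.99, SE 0.32, adjusted p = 0.199). In the same comparison the choroid plexus list had a median log2 fold change of 0.08. The neuron list had a median of −0.87, with 0 of 9 genes above 0, where 49.7% of all genes were. The part of neuronal RNA in Atp1b1 was not tested.

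**Figure D3:**
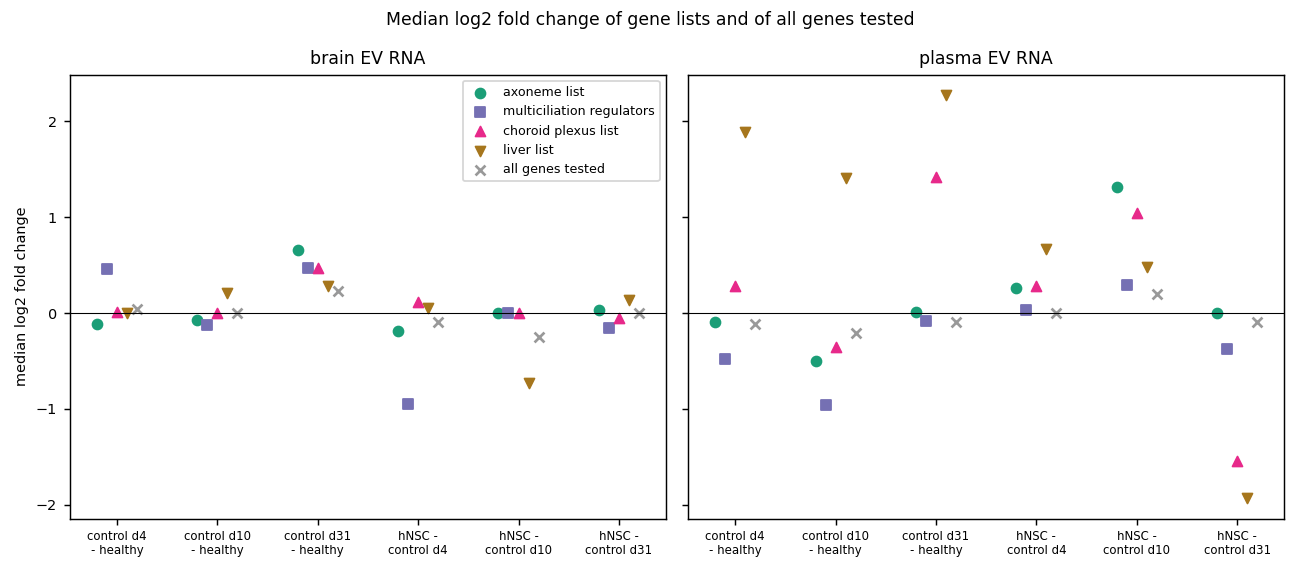
Median log2 fold change of the axoneme, multiciliation regulator, choroid plexus and liver lists (colored symbols) and of all genes tested (crosses) in the 6 comparisons, in brain (left) and plasma (right), with genes absent from a whole group set at the bound given by 3 counts. In brain the axoneme median is highest at day 31 against healthy, 0.66 against 0.23 for all genes, and in plasma the median of the liver list is 2.28 at day 31 against healthy and −1.93 for hNSCs against control at day 31.

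The members were weakly alike over the 21 brain libraries. Pearson's r of log2(CPM + 1) over pairs of ciliary genes had a median of 0.25 and ran from −0.36 to 0.62 (21 pairs), and over the 3 pairs of choroid plexus genes it ran from 0.43 to 0.56. Between both sets the median was 0.24. These points share their libraries, which differ in depth and in how many of these values are 0. The genes most like the mean ciliary profile were Sptbn1 (r = 0.87), Ezh1 (0.85), Nmnat2 (0.83), Strn (0.83) and Hsp90aa1 (0.82), none of them on the axoneme list, where the median over all genes was 0.34 and the 95th percentile 0.67. Foxj1 itself had r = 0.27 with that profile. Those most like Ttr in brain were Repin1 (r = 0.70), Ajuba (0.67), Thsd7a (0.65), Bola1 (0.65) and Smdt1 (0.63), with a median of −0.01 over all genes and a 95th percentile of 0.31. Kl ranked 114 (r = 0.46) and Folr1 180 (r = 0.43) of 14515 in likeness to Ttr.

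The miRNAs give a readout that did not enter the choice of the 10 genes, from separate small RNA libraries of the same preparations. The miRNA list was itself chosen with earlier results of these data known, so its calls are no test of a list fixed in advance. Of the listed miRNAs, 8 passed the filter in brain among 350 tested. At day 31 against healthy 2 of the 8 rose, where 13.4% of all miRNAs tested did. miR-34c-5p was at 242, 129 and 210.2 CPM in healthy rats and at 693, 745 and 387 in the control group at day 31 (log2 fold change 1.67, SE 0.32, edgeR adjusted p = 0.00102). miR-34b-5p was at 58.0, 30.3 and 58.4 CPM and at 188, 213 and 67.2 (log2 fold change 1.72, SE 0.40, adjusted p = 0.00408). All 3 control rats lay above all 3 healthy rats for both, where 22.6% of all miRNAs tested did so, although the third control rat was near the healthy range for miR-34b-5p. Both calls held under each of the 26 alternatives run.

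On earlier days the same miRNAs lay between these levels. In the control group at day 4 miR-34c-5p was at 483, 279 and 307 CPM (log2 fold change 0.89, SE 0.32, adjusted p = 0.0562) and miR-34b-5p at 125, 76.2 and 87.6 (log2 fold change 1.00, SE 0.40, adjusted p = 0.0868). At day 10 they were at 279.6, 289.9 and 268 CPM (adjusted p = 0.234) and at 88.4, 66.8 and 76.1 (adjusted p = 0.234). All of these groups lay wholly above the healthy one, as did 21.4% of all miRNAs tested at day 4 and 16.3% at day 10. The day-4 change of miR-34c-5p was called in 13 of 26 alternatives, DESeq2 and limma on TPM among them (lowest adjusted p = 0.0118), and that of miR-34b-5p in 3 of 26. At day 10 neither was called in any. The opposite strands did not follow: miR-34b-3p was at 68.2, 62.5 and 28.0 CPM in healthy rats and 68.9, 49.5 and 38.1 in the control group at day 31 (log2 fold change −0.00, SE 0.40), and miR-34c-3p had a log2 fold change of 0.25 (SE 0.42, adjusted p = 0.692). Whether the strands differed in their change was not tested.

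miR-449a-5p, which shares the seed of both, was low. Its CPM values were 6.82, 5.68 and 7.01 in healthy rats, from 2 to 3 UMI counts a library, and 20.3, 27.8 and 14.4 in the control group at day 4, 8.69, 38.7 and 17.7 at day 10 and 17.2, 13.3 and 13.4 at day 31. All 9 control values lay above the 3 healthy ones, where 21.4%, 16.3% and 22.6% of all miRNAs tested lay wholly above at days 4, 10 and 31. The adjusted p values were 0.106, 0.0822 and 0.301, and the day-10 change was called in 2 of 26 alternatives. miR-449c-5p had counts in 4 of the 21 brain libraries.

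The choroid plexus miRNAs were the more abundant. miR-204-5p was at 2605, 2589 and 1677 CPM in healthy rats and fell to 1662, 1027 and 644 in the control group at day 4 (log2 fold change −1.04, SE 0.34, adjusted p = 0.0430), 1 of 8 where 8.29% of all miRNAs tested fell. The call was lost in 14 of 26 alternatives, with adjusted p values from 0.00109 to 0.170 and the same sign in each. Among the 6 libraries compared, leaving out healthy rat 1 or 2 or control rat 2 or 3 ended it, as did leaving out 8 libraries of other groups, which share the estimate of spread, and limma on TPM with either pseudocount. At day 10 miR-204-5p was at 2037, 1035 and 1411 CPM (adjusted p = 0.194), and at day 31 it was at 4245, 4618 and 2686, all above the healthy rats (log2 fold change 0.75, SE 0.34, adjusted p = 0.107, called in 1 of 26 alternatives). miR-211-5p, of the same seed, was at 1146, 939 and 899 CPM in healthy rats, at 882, 621 and 376 in the control group at day 4 (adjusted p = 0.141, called in 1 of 26 alternatives) and at 1523, 2006 and 1039 at day 31 (adjusted p = 0.169). The opposite strand, miR-204-3p, had a log2 fold change of −0.04 at day 4 (SE 0.49, edgeR adjusted p = 0.970). It had −0.36 at day 10 (SE 0.49) and 0.80 at day 31 (SE 0.47, adjusted p = 0.242), and the groups overlapped at each day. Its day-4 sign was the same in 12 of 26 alternatives. Whether the strands of miR-204 differed in their change was not tested. At day 10 after stroke 0 of the 8 miRNAs were called by edgeR or DESeq2, with 1 at an unadjusted p under 0.05, where 21.1% of all tested were called by edgeR.

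hNSCs were compared with control for the same miRNAs. No listed miRNA was called at any day by edgeR or DESeq2, where edgeR called 0.286%, 0% and 0% of all, and 3, 0 and 0 of the 8 had an unadjusted p under 0.05. In the hNSCs group at day 4 miR-34c-5p was at 803, 476 and 409 CPM and miR-34b-5p at 247, 164 and 117, with log2 fold changes against control of 0.67 (SE 0.31) and 0.89 (SE 0.36) and an adjusted p of 0.994 for both. miR-204-5p was at 2045, 2383 and 1076 (log2 fold change 0.72, SE 0.34, adjusted p = 0.994). At day 10 miR-34c-5p lay wholly above its control group (log2 fold change 0.35, SE 0.31, edgeR adjusted p = 0.721). In no other brain comparison of hNSCs with control did the groups of a listed miRNA stand apart. At day 31 the hNSCs values of miR-34c-5p, 734, 433 and 449 CPM, overlapped those of the control group.

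**Figure D4:**
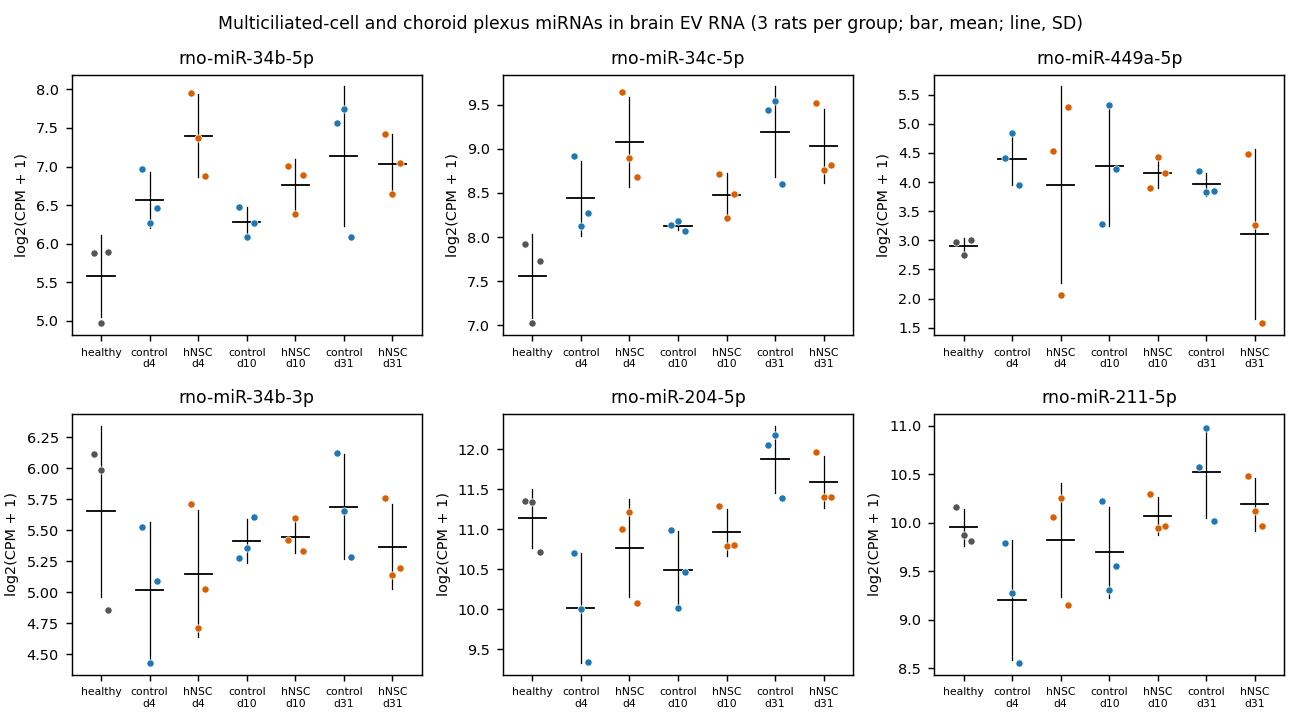
Of the 8 miRNAs that passed the filter, 6 are shown in brain EV RNA on a log2(CPM + 1) scale, by group, with points for rats, a bar for the mean and a line for the SD (n = 3). The 5p strands of miR-34b and miR-34c lie above the healthy group in all 3 control groups, miR-34b-3p does not, and miR-204-5p is lowest in the control group at day 4 and highest at day 31.

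In plasma 4 of the 7 ciliary genes were not detected, and Dnah11 was the most often seen of them. Foxj1, Ccdc153, Spag17 and Tmem212 had no count in any of 21 libraries, which over their 452574002 annotated counts allows a level of up to 0.00663 CPM. That pooled limit, taken without TMM factors, covers counting error only and is no limit for a single library. Dnah5 had counts in 1 library (5.08 CPM), Folr1 in 1 (1.74 CPM), Kl in 3 (2.59, 9.03 and 12.1 CPM) and Rsph1 in 4 (1.02 to 3.69 CPM). Dnah11 had counts in 11 libraries, from 1.53 to 37.1 CPM, and in none of the hNSCs group at day 31. Its mean FPKM was 0.149 ± 0.232 (SD over 21 libraries) against 0.181 ± 0.209 in brain, but its median was 1.53 CPM against 39.0 in brain. FPKM are scaled to mapped fragments and CPM to annotated counts, whose share was 45.1% to 75.6% in plasma and 3.18% to 51.9% in brain. Of the axoneme list, 69 of 90 genes were detected in at least 1 plasma library, with a summed level of 78.1 to 484 CPM. In all 4 members, Dnah11, Rsph1, Ttr and Kl, passed the filter among 14720 genes, and 0 of them were called by edgeR in the 6 comparisons, where 0.0679% of all genes (0.00679% higher and 0.0611% lower) were at day 4 against healthy, 0.00679% for hNSCs against control at day 4, and 0% in the other 4. At an unadjusted p under 0.05 there was 1 member (Ttr, control at day 31 against healthy) and 2 (Ttr and Dnah11, hNSCs against control at day 31). DESeq2 called Kl in the control group at day 4 against healthy and Dnah11 for hNSCs against control at day 31, each absent from all libraries of 1 group, where it called 6.48% and 11.9% of the 14013 genes to which it gave an adjusted p.

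Ttr was present in all plasma libraries and varied widely. Its CPM values were 314, 386 and 148 in healthy rats, 544, 7.73 and 894 in the control group at day 4, 392, 1026 and 449 at day 10, and 2825, 1954 and 224 at day 31. In the hNSCs groups they were 679.5, 1311 and 209.8 at day 4, 65.7, 1006 and 855 at day 10, and 116, 93.9 and 570.4 at day 31. The control groups mixed the highest and the lowest values of the series, and at day 31 the third control rat lay within the healthy range. The log2 fold change of the control group at day 31 against healthy was 2.56 (SE 1.18, unadjusted p = 0.0428, adjusted p = 0.844), and that of hNSCs against control at day 31 was −2.68 (SE 1.19, adjusted p = 0.522). Both rest on the same 3 control libraries. At day 10 the control rats lay above all healthy rats, where 3.64% of all genes did (log2 fold change 1.14, SE 1.13, adjusted p = 1.00), but the lowest control value, 391.8, was close to the highest healthy one, 386.1. On FPKM these groups overlapped, at 97.2, 324 and 164 against 163, 81.9 and 59.1. On CPM no other member's plasma groups stood apart in any of the 6 comparisons. The share of all genes lying wholly above and below was 4.06% and 8.4% at day 4 against healthy, 8.61% below at day 10, and 4.34% and 7.84% at day 31. For hNSCs against control it was 3.34% and 4.36% at day 4, 6.2% and 2.38% at day 10, and 4.6% and 6.57% at day 31. On FPKM, Ttr in plasma was above Ttr in brain in 21 of 21 pairs of libraries of the same group and number, by a factor of 1.20 to 582 with a median of 33.3. Plasma and brain were normalized separately, so that these ratios are of levels within each library.

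Summed liver genes and Ttr varied together in plasma. The summed level of the 13 genes of the liver list ranged from 1136 to 53005 CPM over the plasma libraries, all 13 were detected, and the library with the lowest sum was also the one with the lowest Ttr. The medians of the liver list were 2.28 on the log2 scale for the control group at day 31 against healthy and −1.93 for hNSCs against control at day 31, beside −0.09 and −0.10 over all genes, with 0 of 13 called by edgeR and 2 and 1 at an unadjusted p under 0.05. The 5 genes most like Ttr over the plasma libraries, looked up after its values were seen, were Pon1 (r = 0.97), Ahsg (0.97), Crp (0.97), Alb (0.96) and Afm (0.96), all genes of proteins that the liver secretes, where the median over all genes was 0.06 and the 95th percentile 0.57. In brain, Alb, the albumin gene, was listed at 0 FPKM in 14 of 21 libraries, all of them from days 4 and 10 or healthy rats, and reached at most 4.23 CPM, while Ttr was present in all 21. Of the whole liver list 10 of 13 genes were detected in brain, 2 to 9 of them in a group, with a summed level of 54.3 to 569 CPM. In healthy rats the sum was 106 to 156, with 4 of the 13 genes detected. In the control group at day 4 it was 275 to 400.5 and rested on 2 genes. The part of liver RNA in Ttr was not tested.

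**Figure D5:**
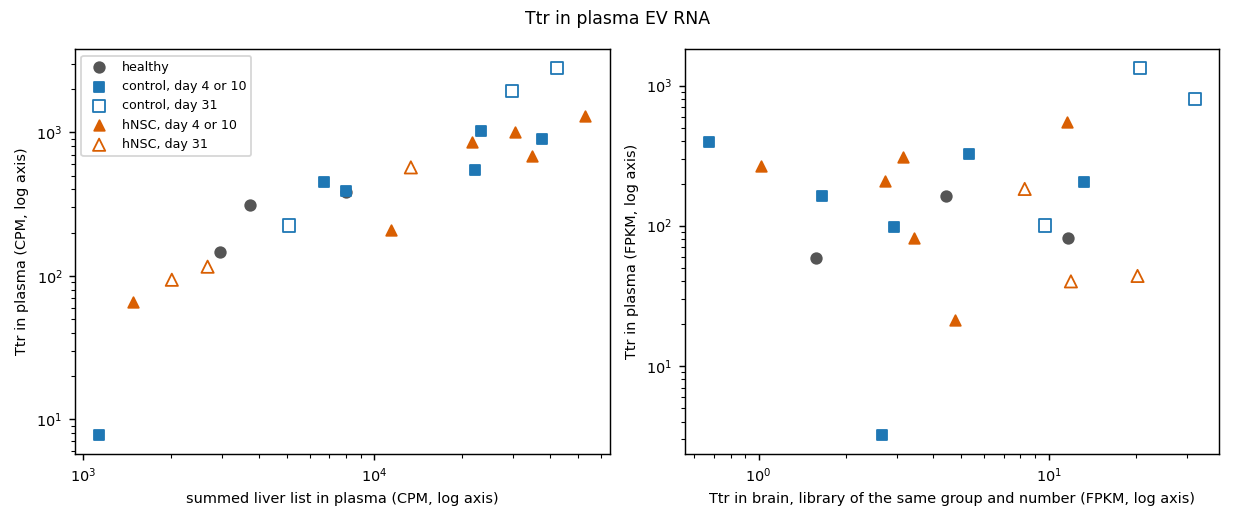
Ttr in the 21 plasma libraries against the summed liver list (left, CPM, both axes log) and against Ttr in the brain library of the same group and number (right, FPKM, both axes log). Plasma Ttr runs from 7.73 to 2825 CPM along liver sums of 1136 to 53005, and exceeds brain Ttr on FPKM in all 21 pairs.

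The multiciliated and choroid plexus miRNAs were also low in plasma. miR-204-5p had a median of 33.3 CPM (8.55 to 111), miR-34c-5p 18.3 (6.26 to 29.96), miR-211-5p 15.2 (1.22 to 48.6) and miR-34b-5p 9.85 (3.58 to 18.3), each detected in all 21 libraries. Of the listed miRNAs 6 passed the filter among 309 tested and 0 were called in any comparison by edgeR, where 0.324% at day 4 against healthy and 0.971% for hNSCs against control at day 10 were called and 0% in the other 4. DESeq2 called 0 as well. At an unadjusted p under 0.05 in edgeR there were miR-449a-5p for hNSCs against control at day 4 (log2 fold change −2.31, SE 0.88, adjusted p = 0.789) and miR-204-5p at day 31 (−1.96, SE 0.79, adjusted p = 0.387).

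The starts of the genes offer a feature that no level entered. Of the 10 genes, 6 had a promoter entry in RefSeq (GRCr8, 250 bases before to 50 after the start). The letters GGNAAC, the core that RFX factors such as Rfx3 bind, were searched on both strands, and occurred near 4 of the 6, near 56 of 69 axoneme-list genes (81.2%) and near 47.7% of all 27457 genes. TGTTTNC, a core of forkhead factors such as Foxj1, occurred near 3 of the 6, 23 of the 69 (33.3%) and 22.4% of all genes. GGNAAC was found near Tmem212, Spag17, Dnah11 and the choroid plexus gene Ttr, and TGTTTNC near Tmem212, Dnah11 and Ttr. Dnah5 and Kl had neither. A gene counted if any of its promoter entries matched, and Dnah11 had 6 entries and Spag17 2. The matches nearest the start are printed for the ciliary members, with the GGNAAC match in capitals as it reads on the gene's strand.
Tmem212: ggcttgtgttttGGTAACagatatcacaga
Spag17: ggcgtggtctcgGTTACCaaggcatcaggg
Dnah11: ggccatctccctGGCAACgggacgcgatgc
They lie at chr2:112741862-112741891 (minus strand), chr2:189952729-189952758 (plus strand) and chr6:145298490-145298519 (minus strand). A match is a run of letters and was not tested for binding, and the differences in share from all genes were not tested.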

How the data were processed

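Long RNA (SMARTer stranded total RNA kit) and small RNA (QIAseq, with unique molecular identifiers, UMIs) were sequenced from brain and plasma EVs of 21 rats, 84 libraries in all. The authors aligned long reads with Bowtie2 to Rnor_6.0 and deposited raw counts per gene, unannotated transcripts included. FPKM were computed by the authors with StringTie, per length and mapped fragments. For miRNAs the authors deposited UMI counts and TPM (tags scaled to the library total). Tool versions, read assignment and the use of strand are not given in the sources used here. The labels name both plasma and serum for the blood sample.

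The members, the gene lists and the miRNA list were chosen with earlier results of these data known. Counts of annotated genes that passed filterByExpr were fitted by tissue over all 7 groups (TMM, edgeR 4.0.16 quasi-likelihood, R 4.3.3), and called means a Benjamini-Hochberg adjusted p under 0.05 over all genes tested. Rows without an annotated gene were left out of library sizes; annotated genes held 3.18% to 51.9% of brain counts. Named genes were the 10 members, per list and comparison up to 4 called genes without overlap or else the 2 of highest mean CPM, the listed miRNAs that passed the filter, and the 5 genes most like the ciliary mean and Ttr by Pearson's r over brain libraries. Alternatives were DESeq2 1.42.0, limma 3.58.1 on log2(FPKM or TPM + 1 or 0.1), no TMM, no filter, the 2 groups alone, a replicate block, hemoglobin genes left out in plasma, and each library left out. In simulated brain counts with 200 changed genes among 14515 (control day 4 against healthy), 23% of 4-fold and 45% of 16-fold changes were recovered. In simulated plasma counts it was 1% and 22%, so that most changes in plasma long RNA would have been missed. In simulated miRNA counts, with 87 of 350 miRNAs raised in brain and 77 of 309 in plasma, it was 95.5% and 100% in brain and 56.4% and 100% in plasma. Unchanged features were called as well, 2 in brain and 0 in plasma for long RNA, and 11 in brain and 7 in plasma for miRNAs. Rats were the replicates.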

Additional observations from a re-analysis of the deposited data

How the results depend on the processing

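The count of members called was 0 in all 12 comparisons and stayed 0 without any 1 library (0 to 0), except as follows. In brain at day 31 against healthy it was 6 by limma on log2(FPKM + 1) and 6 on log2(FPKM + 0.1). In plasma DESeq2 called 1 at day 4 against healthy and 1 for hNSCs against control at day 31. The called listed miRNAs in brain were 3, and 6 with the replicate block (miR-34c-5p and miR-211-5p at day 4 against healthy, adjusted p = 0.0248 and 0.0434, and miR-204-5p at day 31, 0.0251, in addition), 5 without the filter on low counts and 2 to 5 without 1 library (2 without rat 2 or 3 of the control group at day 4, rat 3 of that at day 10, rat 1 of that at day 31, healthy rat 1 or 2, or any rat of the hNSCs group at day 10, 5 without rat 1 of the control group at day 10 or rat 3 of that at day 31). The counts over all genes moved more. In brain at day 4 against healthy 125 genes were called, 847 by DESeq2, 514 and 598 by limma, 421 higher and 119 lower with the 2 groups alone, 46 without the 3 shallowest libraries (chosen after seeing the data) and 0 to 95 without 1 library (0 without healthy rat 1 or 3). At day 10 the 83 became 613 by DESeq2, 0 by limma and with the 2 groups alone, 53 with the replicate block, 10 without the shallowest and 0 to 367 without 1 library (0 without healthy rat 1, 367 without control rat 1). At day 31 the 1 became 176 by DESeq2, 11386 and 10783 by limma, 6 without the filter, 3 with the 2 groups alone and 0 to 7 without 1 library (7 without healthy rat 2). For hNSCs against control in brain the 0 called became 220 and 636 by DESeq2 at days 4 and 10, 19 without hNSCs rat 2 of day 4, 733 without hNSCs rat 1 of day 10, 14 without the shallowest libraries at day 4, and 0 at day 31 in each alternative. In plasma DESeq2 called 908, 1214, 659, 873, 1142 and 1668 genes in the 6 comparisons, against 10, 0, 0, 1, 0 and 0, and leaving out 1 library gave 4 to 10, 0 to 2, 0, 1 to 41, 0 to 2 and 0 to 24. The cause of these shifts was not tested.

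Replicate numbers were not used to pair the samples in the main fit, and whether they mark a shared structure is not settled. Same-numbered libraries correlated above 0.1 in 9 (brain) and 6 (plasma) of 63 pairs of long RNA libraries. They did so in 22 and 21 of 63 pairs of small RNA libraries. The share of libraries that correlated best with their own number was 47.6%, 19.0%, 61.9% and 42.9% in that order. By design 6 of the 18 libraries of other groups (33.3%) carry that number. The share was thus above that of the design in all but plasma long RNA, and the reason was not tested. With the block the count of members called stayed 0 in the 12 mRNA comparisons and the called genes at day 4 in brain were 180. In brain the depth limits what could be seen, since a gene at 0 could have stood at up to 5.27 CPM (without TMM factors) in the shallowest library.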

Other observations

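A row of the count table named Dnah5-2, which is not among the 10 genes, had counts in 14 of the 21 brain libraries, 1851 in all. Its CPM values were 0, 8.20 and 44.5 in the healthy group and 19.1, 23.4 and 20.03 in the day-31 controls, and 22.9, 19.2 and 24.8 in the hNSCs group at day 31. It was at 0, 22.5 and 0.285 CPM in the hNSCs group at day 4 and at 27.3, 0 and 0 in the one at day 10.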
